A study of Mus musculus with 18 samples.

Results

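The solute carrier family 22 (Slc22) holds membrane proteins that carry organic cations, organic anions and carnitine into and out of cells. The transcripts of 8 members were followed in mouse liver, *Slc22a3*, *Slc22a5*, *Slc22a7*, *Slc22a23*, *Slc22a27*, *Slc22a28*, *Slc22a29* and *Slc22a30*, taken by name from the 20512 genes of the expression table, with earlier results of these data known. None of the 8 stood at 0 in every library, and all 8 passed the minimum mean log2 value of 2 that left 13268 genes for testing. The RNA came from the livers of 18 male C57BL/6 mice, 1 library per mouse, which were 6 to 7 weeks old when the diets began and were fasted overnight before the end. The HFD+AC261066 group (n = 6) ate a high-fat diet (HFD), in which fat supplied 60% of kcal, for 4 months and in the last 2 months drank water with 3 mg of AC261066 per 100 ml, a synthetic compound that activates RARβ2, a receptor for retinoic acid. The HFD group (n = 6) had the same diet without the compound, and the chow group (n = 6) chow with fat at 13% of kcal for the same time. The drinking water of all 3 groups held 0.2% DMSO, the solvent of the compound. The comparisons ask what the diet does to these transporters and what the compound does on top of it. There was no group on chow with the compound, so its action without the HFD cannot be read from these livers.

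Slc22 transporters sit in the plasma membrane and take up drugs, toxins, hormones and metabolites, mostly down an electrochemical gradient or in exchange for another ion. In liver they supply hepatocytes with compounds for metabolism and excretion, and *Slc22a5* also brings in carnitine, which long-chain fatty acids need to enter mitochondria. The family grew by local duplication, and rodents have a cluster of closely related organic anion transporter genes for which the transported compounds are little known.

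Of the 8 genes, 4 lie in that cluster, on the minus strand of chromosome 19. In mm9, with gene models from GENCODE vM1, *Slc22a27* spans chr19:7938881-8040517, *Slc22a28* chr19:8136699-8206472, *Slc22a29* chr19:8234655-8337108 and *Slc22a30* chr19:8409861-8479601. *Slc22a26* lies next to them at chr19:7855531-7877157. The others lie apart, *Slc22a3* at chr17:12612838-12700570 beside *Slc22a2*, *Slc22a7* at chr17:46569134-46575426, *Slc22a5* at chr11:53678044-53705162 beside *Slc22a21* and *Slc22a4*, and *Slc22a23* at chr13:34271027-34437051. All are annotated as protein coding.

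The 4 clustered genes form 2 pairs of near copies that alternate along the chromosome. The coding sequences of *Slc22a27* and *Slc22a29* were 97.28% identical, with 45 mismatched bases in 1656, and those of *Slc22a28* and *Slc22a30* were 98.79% identical, with 20 in 1659. Between the pairs the identity was 91.63% to 92.29%, and between any other 2 of the 8 genes 48.31% to 56.17%. The first 60 coding bases show the pairing, with capitals at the 2 positions where the 4 genes are not all the same:
Slc22a27: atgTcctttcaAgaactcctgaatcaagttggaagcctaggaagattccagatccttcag
Slc22a29: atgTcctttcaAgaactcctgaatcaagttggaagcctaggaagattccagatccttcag
Slc22a28: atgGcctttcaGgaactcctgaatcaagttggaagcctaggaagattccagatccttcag
Slc22a30: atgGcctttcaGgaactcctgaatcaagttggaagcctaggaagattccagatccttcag

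The DNA before the GENCODE gene starts fell into the same pairs. Its part in the values of these genes was not tested. The 250 bases upstream are printed from the minus strand of mm9, 5′ to 3′, with capitals at bases that differ from the other gene of the pair. They lie at chr19:8040518-8040767 for *Slc22a27*, chr19:8337109-8337358 for the upstream start of *Slc22a29*, chr19:8206473-8206722 for *Slc22a28* and chr19:8479602-8479851 for *Slc22a30*:
Slc22a27: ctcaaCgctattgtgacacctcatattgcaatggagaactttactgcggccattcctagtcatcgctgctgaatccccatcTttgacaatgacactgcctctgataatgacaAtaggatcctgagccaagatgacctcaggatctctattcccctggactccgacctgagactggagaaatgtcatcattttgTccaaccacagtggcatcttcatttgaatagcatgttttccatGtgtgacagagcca
Slc22a29: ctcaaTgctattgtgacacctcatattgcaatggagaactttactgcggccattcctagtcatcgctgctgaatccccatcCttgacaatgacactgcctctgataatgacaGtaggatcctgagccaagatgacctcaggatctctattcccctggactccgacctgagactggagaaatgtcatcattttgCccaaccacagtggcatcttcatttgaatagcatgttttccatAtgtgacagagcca
Slc22a28: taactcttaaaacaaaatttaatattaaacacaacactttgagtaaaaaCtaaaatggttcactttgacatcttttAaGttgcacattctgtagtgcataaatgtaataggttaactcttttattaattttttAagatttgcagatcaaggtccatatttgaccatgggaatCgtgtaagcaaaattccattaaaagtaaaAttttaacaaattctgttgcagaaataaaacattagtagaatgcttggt
Slc22a30: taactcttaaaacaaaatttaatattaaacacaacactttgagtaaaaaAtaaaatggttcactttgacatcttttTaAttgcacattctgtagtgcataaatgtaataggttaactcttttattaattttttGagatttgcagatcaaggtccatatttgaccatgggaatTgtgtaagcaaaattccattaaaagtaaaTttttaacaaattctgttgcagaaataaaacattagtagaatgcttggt

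In these windows *Slc22a27* and *Slc22a29* shared 245 of 250 bases (98%) and *Slc22a28* and *Slc22a30* 244 of 250 (97.6%). Across the pairs the alignments came to 47.26% to 49.33% identity, so the windows of different pairs had little in common. The pairing did not hold at the start that RefSeq gives for *Slc22a29*, further downstream. The window before it was 65.12% identical to that of *Slc22a28*, 67.15% to that of *Slc22a30* and 51.04% to that of *Slc22a27*, although a 93.95% identical copy of it lies within *Slc22a27*. The hexamer AGGTCA, the half-site of many nuclear receptors, occurred 1 time each in the windows of *Slc22a27* and the upstream start of *Slc22a29*, on either strand, and in none of the others. It also occurred in 13.8% of 27025 RefSeq promoter windows of the same length. The direct repeat that retinoic acid receptors can bind was sought only as AGGTCA and again AGGTCA after 5 bases. In this form it was found in none of the windows of the 4 genes, nor was the HNF1 dimer motif or the STAT5 motif TTCNNNGAA. Repeats with other bases or spacings were not searched for. On either strand the exact direct repeat, HNF1 motif and STAT5 motif occurred in 0.0074%, 0.0074% and 7.18% of the RefSeq windows. The window before the RefSeq start of *Slc22a26* was 50.69% identical to that of *Slc22a27* and 54.11% to that of *Slc22a28*. It held the STAT5 motif 1 time.

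The near identity limits what reads can tell apart. Reads of 51 bases were used, and 30.71% of the distinct 51-base stretches of *Slc22a27* transcripts and 27.98% of those of *Slc22a29* were also found in transcripts of another gene, mostly the other of the pair. For *Slc22a28* the share was 53.28% and for *Slc22a30* 33.27%. For *Slc22a5* it was 25.76%, nearly all in *Slc22a21*, and for *Slc22a3*, *Slc22a7* and *Slc22a23* it was 0. How reads with several matches were counted is not given in the sources used here, so the values of the 5 genes that share stretches are uncertain where the genes of a pair could exchange reads.

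All values are log2 values as the authors made them, 1 per gene and liver, and differences are between group means on that log2 scale. The tissue check held, since albumin (*Alb*) averaged a log2 value of 21.1, whereas 2 of 6 kidney tubule markers, *Slc12a1* and *Aqp2*, were listed at 0 in every library. Of the other markers of tubule cells, a cell type rich in Slc22 transporters, only *Lrp2* passed the minimum. On the first principal component of all tested genes HFD+AC261066 replicate 3 lay at -12.5, away from the other 5 livers of its group (3.53 to 7.22) and among the chow livers (-21.4 to -10.9), and the HFD livers lay at 8.40 to 21.2. Results that rest on that library are given with and without it. The libraries numbered 1 to 3 and 4 to 6 had equal means for every gene, as is left when batch means are removed, so the main results also come with the difference inside each of these sets. The change differed between the sets for 0 of the 8 genes in limma's interaction test in any comparison (lowest adjusted p = 0.21, and an unadjusted p of 0.0136, for *Slc22a3* in HFD+AC261066 against HFD), whereas over all genes 0.0603% did so for the diet, 0.497% in HFD+AC261066 against HFD and 4.27% in HFD+AC261066 against chow. In bulk liver, fewer cells of a type and less RNA per cell cannot be told apart.

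Per kb of exon, the 8 genes fell into a high and a low set. *Slc22a23*, an orphan member, and *Slc22a5*, the carnitine transporter, were highest in all 3 groups, with mean log2 levels per kb of 9.06 and 9.05 in HFD+AC261066, 8.90 and 8.99 in HFD and 8.89 and 8.88 in chow livers. These 2 did not differ beyond their spread in any group. *Slc22a7*, the organic anion transporter OAT2, and *Slc22a30* came next. In HFD+AC261066 livers they lay at 8.53 and 7.92 and in HFD livers at 8.41 and 8.14, and in chow livers *Slc22a7* was the lower, at 7.13 against 7.77, and the values of these 2 genes overlapped in each group. A gap of 2.70 in HFD+AC261066, 2.55 in HFD and 2.11 in chow livers, without overlap, separated them from the low set. There, *Slc22a27* was the second lowest in HFD+AC261066 livers (4.35) and in chow livers (3.63) but the highest of the low set in HFD livers (5.59), where its values overlapped those of *Slc22a3*. In HFD livers each gene of the low set overlapped the next, in HFD+AC261066 livers all but *Slc22a27* and *Slc22a29* did, and in chow livers none did. *Slc22a29* was the lowest of all 8 in every group, at 3.06 in HFD+AC261066, 4.28 in HFD and 2.74 in chow livers.

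**Figure D1:**
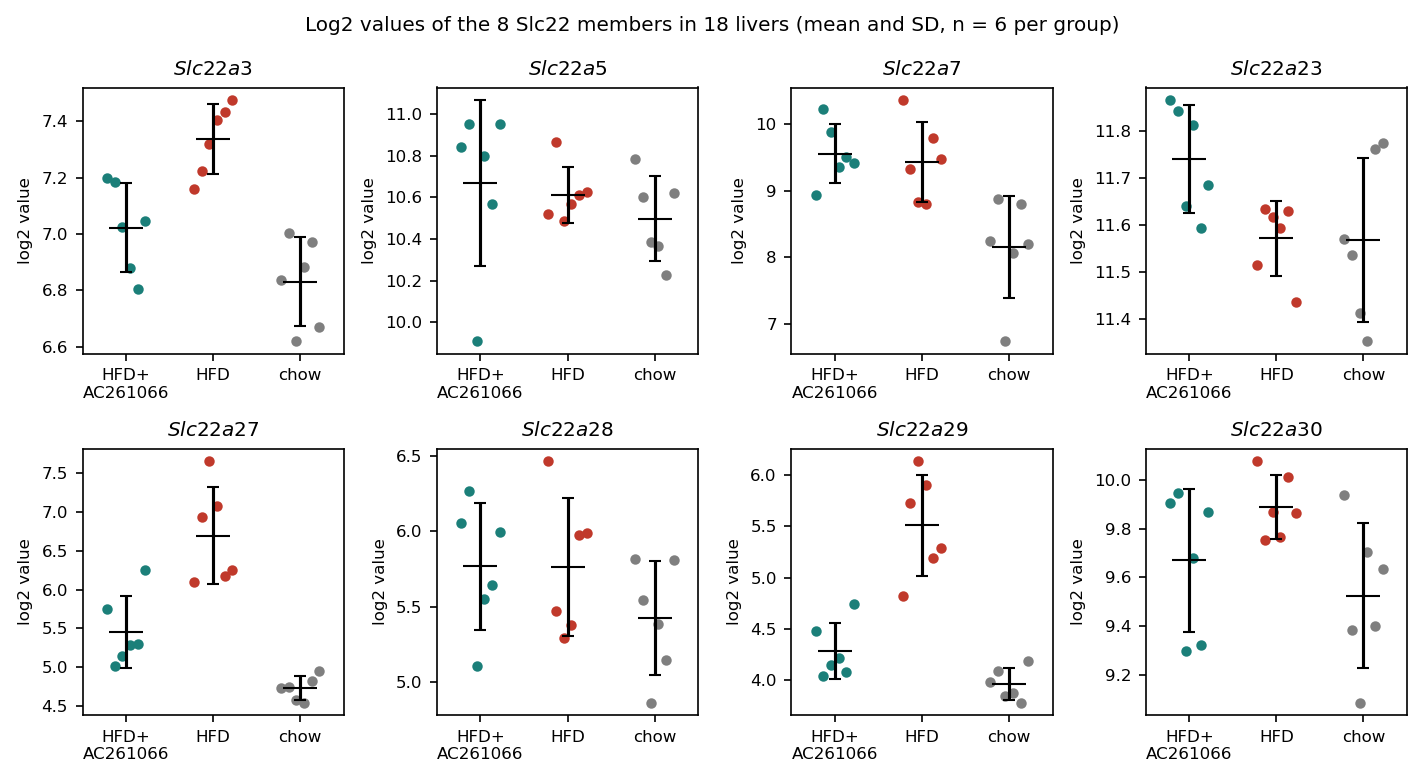
Log2 value (y axis, its own range in each panel) of each of the 8 Slc22 genes in every liver, by group (x axis). Points are livers in the order of their replicate numbers, horizontal bars means and vertical bars SD (n = 6 per group). *Slc22a27* and *Slc22a29* stand highest in HFD livers, while *Slc22a7* is high in both HFD groups.

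In HFD livers 5 of the 8 transcripts were higher than in chow livers and none was lower. Over all 13268 genes, 32.1% were called in this comparison at an adjusted p under 0.1, 15.8% as higher and 16.3% as lower. The median log2 difference of the 8 genes was 0.44, against 0.01 over all genes. The 8 were chosen with earlier results of these data known, and the near copies *Slc22a27* and *Slc22a29* share read stretches. Counts and medians of the 8, here and below, are therefore a description and not a result about the family. Ordered by size, the changes were those of *Slc22a27*, *Slc22a29*, *Slc22a7*, *Slc22a3* and *Slc22a30*. For *Slc22a27*, *Slc22a29* and *Slc22a3* all 6 HFD livers lay above all 6 chow livers, which held for 4.18% of all genes, while 5.55% had all HFD livers below all chow livers and 9.72% had no overlap either way.

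*Slc22a27* had log2 values of 6.09, 6.59 and 7.65 in HFD livers (lowest, median and highest) and of 4.55, 4.74 and 4.96 in chow livers. The HFD livers were all above the chow livers, and they fell into replicates 2, 3 and 4 from 6.93 upward and the other 3 up to 6.25. The log2 difference was 1.96 ± 0.23 (SE), a 3.90-fold higher level (adjusted p = 1.95e-05, limma), and it was 2.20 within libraries 1 to 3 and 1.72 within libraries 4 to 6. Its near copy *Slc22a29* had 4.82, 5.50 and 6.13 in HFD livers and 3.78, 3.94 and 4.19 in chow livers. The same 3 HFD livers were the highest, and the groups did not overlap. Its log2 difference was 1.54 ± 0.17 (SE), 2.91-fold (adjusted p = 1.16e-05, limma), with 1.58 and 1.505 within the sets. By the size of the p-value these genes ranked at 39 and 30 of all genes tested.

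*Slc22a7* encodes OAT2, a hepatic carrier of organic anions and of nucleotide-derived compounds. Its log2 values were 8.80, 9.40 and 10.36 in HFD livers and 6.74, 8.22 and 8.88 in chow livers. The groups overlapped at their edges, and chow replicate 3 lay far below the other chow livers. The log2 difference was 1.27 ± 0.31 (SE), 2.42-fold (adjusted p = 0.00715, limma). Without chow replicate 3 it was 0.99 and still called. Within the sets it was 1.55 and 0.998, and it was not called in libraries 1 to 3 alone (adjusted p = 0.147).

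*Slc22a3* encodes OCT3, a carrier of organic cations such as monoamines. It had log2 values of 7.16, 7.36 and 7.48 in HFD livers and 6.62, 6.86 and 7.01 in chow livers. The groups did not overlap, although the step was small, with a log2 difference of 0.51 ± 0.09 (SE), 1.42-fold (adjusted p = 0.00056, limma). *Slc22a30* had 9.75, 9.87 and 10.08 in HFD livers and 9.08, 9.52 and 9.94 in chow livers, with broad overlap. It was called at a log2 difference of 0.37 ± 0.13 (SE, adjusted p = 0.0498, limma), but not without chow replicate 3, its lowest liver (0.28, adjusted p = 0.11). Within libraries 1 to 3 the log2 difference was 0.43 and within libraries 4 to 6 0.30, and neither set alone gave a call (adjusted p = 0.283 and 0.147, limma).

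The remaining 3 genes did not pass the test. *Slc22a28*, the near copy of *Slc22a30*, had log2 values of 5.29, 5.72 and 6.46 in HFD livers and 4.86, 5.46 and 5.81 in chow livers, and its log2 difference of 0.33 had a 95% interval of -0.12 to 0.78 (adjusted p = 0.271, limma). *Slc22a5* had 10.49, 10.59 and 10.87 in HFD livers and 10.23, 10.49 and 10.78 in chow livers, with an interval of -0.18 to 0.41. *Slc22a23* had 11.44, 11.61 and 11.63 in HFD livers and 11.35, 11.55 and 11.77 in chow livers, and its interval of -0.15 to 0.16 was the narrowest of the 8. All 3 genes overlapped widely between the groups.

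**Figure D2:**
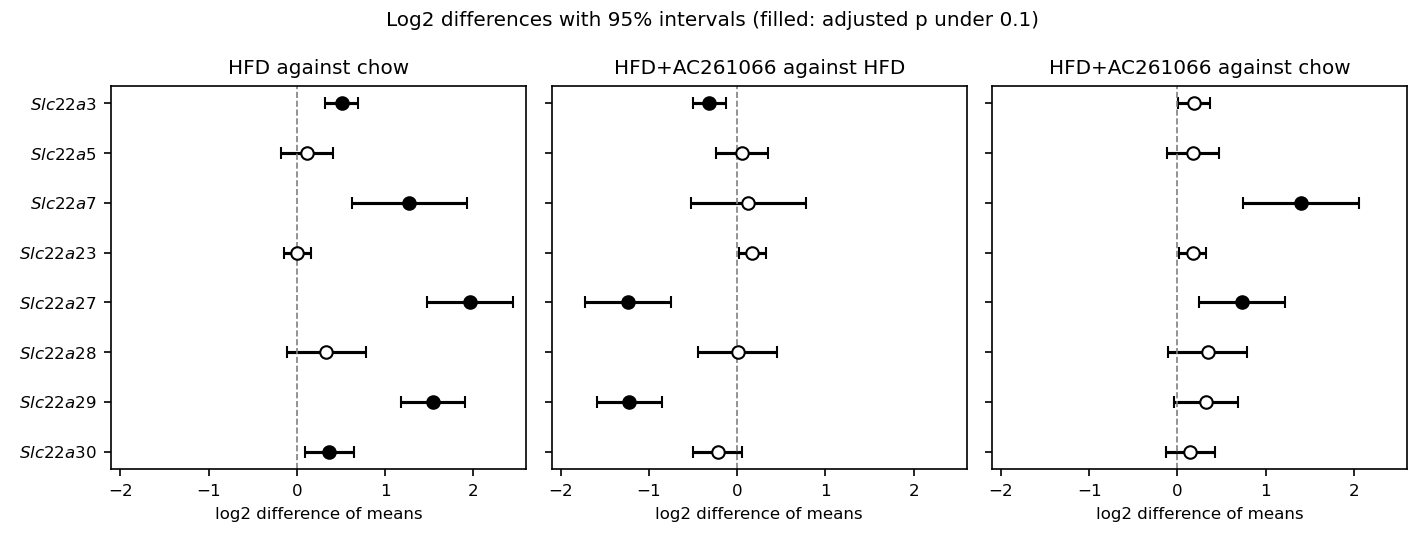
Log2 difference of group means (x axis) for each gene (y axis) in the 3 comparisons, with 95% intervals from limma, filled where the adjusted p was under 0.1. *Slc22a27* and *Slc22a29* lie at 1.96 and 1.54 for HFD against chow and at -1.24 and -1.22 for HFD+AC261066 against HFD, whereas *Slc22a7* lies at 1.27 and 0.13.

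With AC261066 on the HFD, *Slc22a27*, *Slc22a29* and *Slc22a3* were lower than on the HFD alone, and none of the 8 was higher. The share of genes called in this comparison was 4.38% over all genes, with 2.25% called lower and 2.13% higher. The median log2 difference of the 8 was -0.11, against 0.00 over all genes. The HFD livers serve both here and in the diet comparison, so the opposite signs of the differences are not separate evidence.

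*Slc22a29* had log2 values of 4.04, 4.19 and 4.75 in HFD+AC261066 livers, against 4.82, 5.50 and 6.13 in HFD livers. Every HFD+AC261066 liver was below every HFD liver, which held for 0.95% of all genes, while 0.791% lay the other way and 1.74% had no overlap either way. The log2 difference was -1.22 ± 0.17 (SE), a level 0.429 times that of HFD livers (adjusted p = 0.0025, limma), and it ranked 5 of all genes by p-value. Within the sets it was -1.33 and -1.11, and without HFD+AC261066 replicate 3 it was -1.19 (adjusted p = 0.00509). In libraries 1 to 3 alone, with 3 livers a group, it was not called (adjusted p = 0.151).

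*Slc22a27* had 5.02, 5.29 and 6.24 in HFD+AC261066 livers, against 6.09, 6.59 and 7.65 in HFD livers. HFD+AC261066 replicate 6 was the only liver of its group above the lowest HFD livers, and replicate 1 was the next highest. These 2 livers were also the highest for *Slc22a29*. The log2 difference was -1.24 ± 0.23 (SE), 0.425 times the HFD level (adjusted p = 0.0104, limma), and -1.17 without replicate 3 (adjusted p = 0.0219). Within libraries 1 to 3 it was -1.59 and within libraries 4 to 6 -0.88, and neither set alone gave a call (adjusted p = 0.161 and 0.114).

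*Slc22a3* had log2 values of 6.80, 7.04 and 7.20 in HFD+AC261066 livers, against 7.16, 7.36 and 7.48 in HFD livers. The groups overlapped only at their edges. The log2 difference was -0.31 ± 0.09 (SE, adjusted p = 0.0685, limma), and it was smaller in libraries 1 to 3 (-0.10) than in libraries 4 to 6 (-0.53). The call was lost at a threshold of 0.05 and, at 0.1, in 9 of 27 other fits (adjusted p = 0.0513 to 0.769 over all of them), which were libraries 1 to 3 alone, the replicate block, and leaving out HFD replicate 3, 4, 5 or 6 or HFD+AC261066 replicate 3, 4 or 5. Without HFD+AC261066 replicate 3 the log2 difference was -0.32 (adjusted p = 0.101, limma).

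*Slc22a7* did not pass, with 8.94, 9.46 and 10.23 in HFD+AC261066 livers against 8.80, 9.40 and 10.36 in HFD livers. The ranges nearly coincided, and the log2 difference of 0.13 had a 95% interval of -0.52 to 0.78 (adjusted p = 0.875, limma). *Slc22a30* had 9.30, 9.77 and 9.95 in HFD+AC261066 livers against 9.75, 9.87 and 10.08 in HFD livers, with an interval of -0.50 to 0.05. HFD+AC261066 replicates 3, 4 and 5 lay below all HFD livers, and the other 3 were within their range. *Slc22a28* had 5.11, 5.82 and 6.27 in HFD+AC261066 livers against 5.29, 5.72 and 6.46 in HFD livers, and an interval of -0.44 to 0.46. *Slc22a23* had 11.59, 11.75 and 11.87 in HFD+AC261066 livers against 11.44, 11.61 and 11.63 in HFD livers, and its log2 difference of 0.17 had an unadjusted p of 0.0318 and an adjusted p of 0.24 (limma). For these genes the groups overlapped. *Slc22a5* had 9.91, 10.82 and 10.95 in HFD+AC261066 livers against 10.49, 10.59 and 10.87 in HFD livers. Its lowest value was HFD+AC261066 replicate 3, far below the rest. The log2 difference was 0.06 with that library and 0.21 without it (adjusted p = 0.875 and 0.268, limma).

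Set against chow livers, 2 of the 8 genes were higher in HFD+AC261066 livers and none was lower, where 19.7% of all genes were called, 9.79% as higher and 9.89% as lower. These were *Slc22a7*, with a log2 difference of 1.40 ± 0.31 (SE, adjusted p = 0.00905, limma), and *Slc22a27*, with 0.73 ± 0.23 (SE, adjusted p = 0.0476). For both genes all 6 HFD+AC261066 livers lay above all chow livers, which held for 1.67% of all genes, while 2.02% lay the other way and 3.69% had no overlap either way. Both calls were lost in libraries 1 to 3 alone. *Slc22a29* was at 0.32, with a 95% interval of -0.04 to 0.69 (adjusted p = 0.232), and *Slc22a3* at 0.19, with an interval of 0.01 to 0.37 (adjusted p = 0.155). *Slc22a28*, *Slc22a30*, *Slc22a5* and *Slc22a23* had differences of 0.34, 0.15, 0.17 and 0.17 that did not pass. Without HFD+AC261066 replicate 3 the count was 4 of 8, as *Slc22a5* (0.33, adjusted p = 0.0264) and *Slc22a23* (0.19, adjusted p = 0.0934) were called too. Without HFD+AC261066 replicate 5 it was also 4, with *Slc22a3* and *Slc22a23* added.

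Along the chromosome 19 cluster, *Slc22a27* and *Slc22a29* moved apart from *Slc22a28* and *Slc22a30*, which alternate with them. The difference between 2 genes of the cluster was taken within each liver and compared between groups by exact two-sided permutation tests, for 6 gene pairs in 3 comparisons, adjusted over 18 tests. Exact means here that all permutations were counted. They ran freely across the library sets, although the equal set means tie the livers of a set together, so these p-values are approximate. These gene pairs were chosen after their values were seen, so the p-values describe the differences and are not an independent test of them. *Slc22a27* lay 0.93 ± 1.05 above its neighbor *Slc22a28* in HFD livers and 0.70 below it in chow livers (a log2 difference of -0.70 ± 0.32, SD, n = 6 each). The change of 1.63 passed the exact permutation test (p = 0.00649, adjusted p = 0.0234) and was 1.87 and 1.39 within the sets. *Slc22a29* less *Slc22a28* changed by 1.21 (exact permutation p = 0.0152, adjusted p = 0.0341). Against *Slc22a30*, *Slc22a27* changed by 1.595 and *Slc22a29* by 1.18 (adjusted exact p = 0.0234 each). *Slc22a30* less *Slc22a28* changed by 0.03 only, and a difference was not detected (exact permutation p = 0.857).

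Between HFD+AC261066 and HFD livers, *Slc22a29* changed by -1.23 relative to *Slc22a28* and by -1.0 relative to *Slc22a30* (adjusted exact p = 0.0433 and 0.026). *Slc22a27* changed by -1.01 relative to *Slc22a30* (adjusted exact p = 0.0334) and by -1.24 relative to *Slc22a28*, which missed 0.05 after adjustment (exact permutation p = 0.0325, adjusted p = 0.0531). *Slc22a27* less *Slc22a29* changed by -0.01, and a difference was not detected (exact permutation p = 0.935). The sets went opposite ways, with -0.25 within libraries 1 to 3 and 0.23 within libraries 4 to 6. In the diet comparison *Slc22a27* gained 0.42 on *Slc22a29* (adjusted exact p = 0.0234), a step that was 0.62 within libraries 1 to 3 and 0.22 within libraries 4 to 6. In HFD+AC261066 against chow livers that step was 0.40 (adjusted exact p = 0.0234). *Slc22a29* had the lower values, with a mean log2 value of 3.96 in chow livers against 4.73 for *Slc22a27*. Low values in these data lie near their gene's mean, and the genes of this pair share read stretches. The part of these limits in the steps of 0.42 and 0.40 was not tested.

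**Figure D3:**
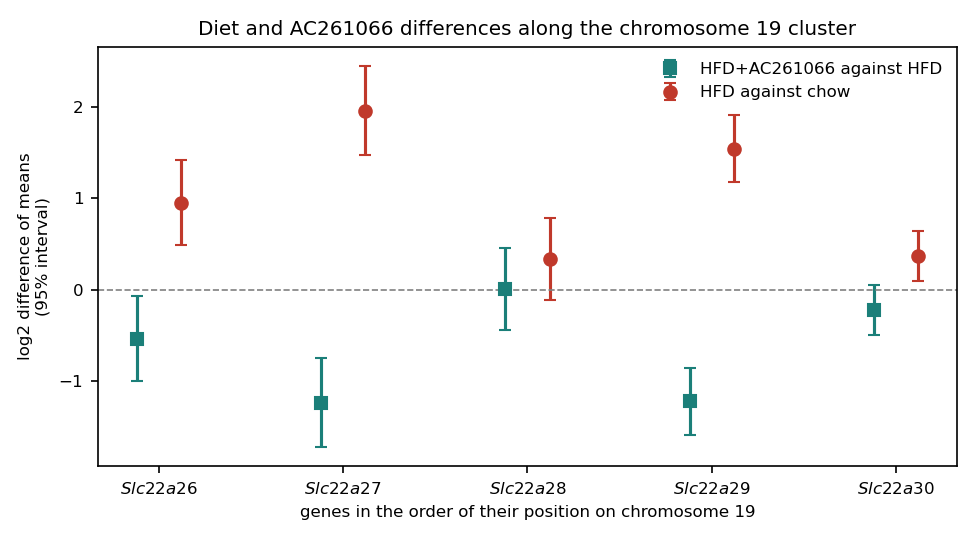
Log2 differences of group means with 95% intervals (y axis) for *Slc22a26* to *Slc22a30* in their order along chromosome 19 (x axis), for HFD+AC261066 against HFD (squares) and HFD against chow (circles). *Slc22a27* and *Slc22a29* stand out from *Slc22a28* and *Slc22a30*, which lie between and beside them.

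The values of single livers were compared within each pair. Only for *Slc22a27* with *Slc22a29* in HFD livers were the adjusted exact permutation p-values of r and rho both under 0.05. Among HFD livers *Slc22a27* and *Slc22a29* had r = 0.96 and rho = 1 (n = 6, exact permutation p = 0.00278 for both, adjusted p = 0.0167 over 6 relations), and r was 0.99 without the 2 livers farthest from the median. Among HFD+AC261066 livers r was 0.98 and rho 0.83 (exact permutation p = 0.0167 and 0.0583, adjusted p = 0.05 and 0.117), but r was 0.54 without the 2 farthest livers, so the relation rests on those. Among chow livers r was 0.59 and rho 0.37 (exact permutation p = 0.225 and 0.497, adjusted p = 0.225 and 0.497), and r was 0.06 without the 2 farthest. *Slc22a28* and *Slc22a30* had r = 0.87, 0.83 and 0.82 and rho = 0.94, 0.49 and 0.71 in HFD+AC261066, HFD and chow livers. The exact permutation p of r was 0.0361, 0.0667 and 0.0417 (adjusted p = 0.0625, 0.08 and 0.0625) and that of rho 0.0167, 0.356 and 0.136 (adjusted p = 0.05, 0.427 and 0.204). Without the 2 farthest livers r was 0.75, 0.84 and 0.38. The genes of a pair share read stretches, so these relations are not between independent measurements, and a group has only 3 livers in a set. These permutations did not keep the library sets apart either. With the livers of all groups pooled as deviations from their group means, r within libraries 1 to 3 and 4 to 6 was 0.97 and 0.93 for *Slc22a27* with *Slc22a29*, and 0.85 and 0.58 for *Slc22a28* with *Slc22a30* (n = 9 livers per set, given as a description). Across the pairs the deviations from the group means had r = -0.29 for *Slc22a27* with *Slc22a28* and 0.01 for *Slc22a29* with *Slc22a30* over the 18 livers.

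**Figure D4:**
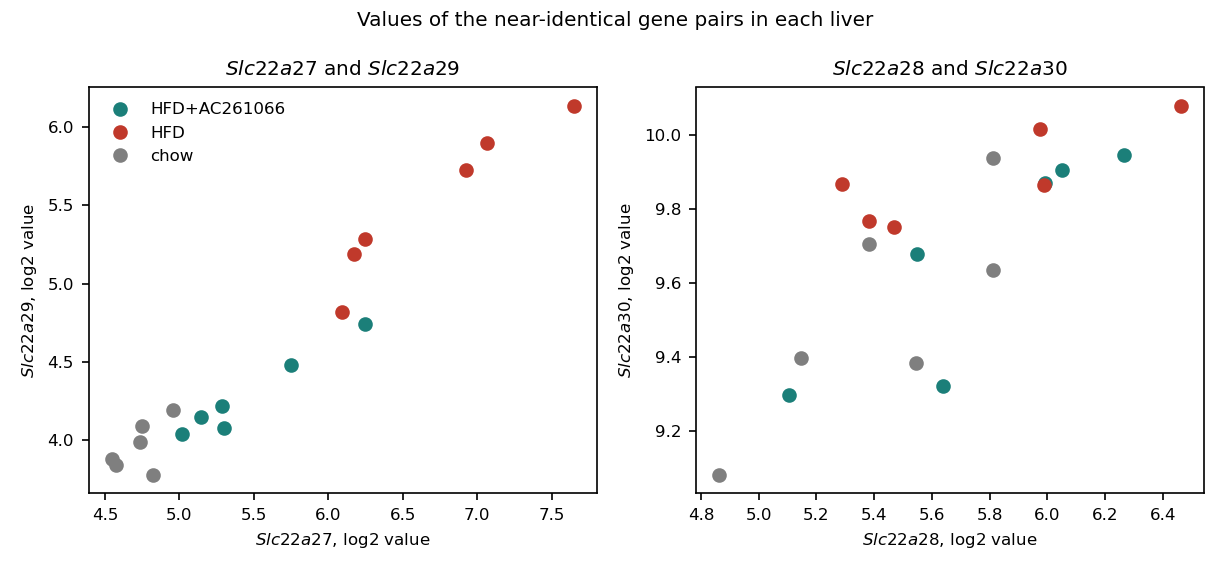
Log2 values of *Slc22a29* against *Slc22a27* (left) and of *Slc22a30* against *Slc22a28* (right), 1 point per liver, colored by group. On the left the HFD livers reach 7.65 and 6.13, above the HFD+AC261066 livers, which reach 6.24 and 4.75, and on the right the groups intermingle.

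Of 17 other Slc22 genes listed, 7 passed the minimum, 9 lay under it and *Slc22a20* stood at 0 in every library. In HFD against chow livers none of the 7 was called lower, against 16.3% of all genes, which with so few genes is not a result about them. How many of the 7 were called higher is not reported here. *Slc22a26*, next to *Slc22a27* in the cluster, had log2 values of 5.29, 5.88 and 6.28 in HFD livers and 4.24, 4.77 and 5.65 in chow livers, with some overlap and a log2 difference of 0.95 ± 0.22 (SE, adjusted p = 0.00508, limma). *Slc22a17*, a lipocalin receptor, differed by 0.16 (adjusted p = 0.0968, limma). In HFD+AC261066 against HFD livers limma called 0 of the 7, against 4.38% of all genes, with 2 at an unadjusted p under 0.05. Of these 2, *Slc22a26* was at -0.54 (adjusted p = 0.219). Against chow, *Slc22a17* was higher in HFD+AC261066 livers by 0.19 and *Slc22a18* fell by 0.20 (adjusted p = 0.0704 and 0.0359, limma). Of the other genes in the regions of the members, *Slc22a4* and *Slc22a21* were not called in any comparison, and *Slc22a2*, *Slc22a8*, *Slc22a6* and *Slc22a19* were under the minimum.

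Carnitine brought in by the *Slc22a5* transporter is used by the shuttle into mitochondria, and carnitine is also made in liver. Of 7 genes for carnitine synthesis and the shuttle, only *Bbox1*, the last enzyme of synthesis, was called in HFD against chow livers, at 0.22 (adjusted p = 0.0142, limma). In HFD+AC261066 against HFD livers limma called 0 of 7, with 0 at an unadjusted p under 0.05. Against chow, *Bbox1* (0.16, adjusted p = 0.0948) and *Crat*, carnitine acetyltransferase (0.62, adjusted p = 0.0304), were higher in HFD+AC261066 livers. Over all genes 32.1% were called in HFD against chow, 4.38% in HFD+AC261066 against HFD and 19.7% in HFD+AC261066 against chow livers.

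Among all tested genes outside the family, those with the most similar log2 values over the 18 livers were found for each member by Pearson r, given as a description since the livers form 3 groups. *Slc22a27* was most like *Hao2*, a peroxisomal hydroxyacid oxidase (r = 0.95), *Lgals1*, galectin-1 (r = 0.93), and *Kbtbd11* (r = 0.93). *Slc22a29* shared 2 of these, *Kbtbd11* (r = 0.97) and *Hao2* (r = 0.96), and was also like the cytochrome P450 gene *Cyp2b13* (r = 0.94). After group means were taken out, r with *Hao2* was 0.85 for *Slc22a27* and 0.79 for *Slc22a29*. For *Slc22a27* it was then 0.67 with *Lgals1* and 0.69 with *Kbtbd11*. For *Slc22a29* it was 0.81 with *Kbtbd11* and 0.74 with *Cyp2b13*. *Slc22a7* was most like *Gna14*, a G protein subunit (r = 0.92), the medium-chain acyl-CoA synthetase *Acsm1* (r = 0.88) and *Nxpe2* (r = 0.87), and *Slc22a3* was most like *Acad9*, *Tmem14a* and *Ociad2* (r = 0.93, 0.89 and 0.89). With group means taken out these were 0.83, 0.86 and 0.70 for *Slc22a7* and 0.80, 0.70 and 0.60 for *Slc22a3*. *Slc22a5* went with *Acot1*, an acyl-CoA thioesterase, *Ddhd2* and *Cbfa2t3* (r = 0.88, 0.88 and 0.86), *Slc22a23* with *Gatm*, *Dlc1* and *Rai14* (0.89, 0.80 and 0.78), *Slc22a28* with *Il1rap*, *Cela1* and *Zfp780b* (0.86, 0.83 and 0.81) and *Slc22a30* with *Cyp2d12*, *Ing4* and *Gm13152* (0.90, 0.86 and 0.84). The members *Slc22a28* and *Slc22a30* had none of these neighbors in common with each other or with *Slc22a27* and *Slc22a29*. With only 3 genes taken per member this says little about likeness, since *Slc22a28* and *Slc22a30* had r = 0.77 with each other over the 18 livers.

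*Hao2* and *Cyp2b13* belong to a list of genes known for higher expression in female than in male mouse liver, which holds no Slc22 gene. In these male livers, between HFD and chow, 8 of its 16 tested genes were called higher with the HFD and 4 lower, led by *Cyp2b9* (5.48), *Hao2* (2.25) and *Cyp2b13* (3.46), with *Cyp3a16* at -0.59. In HFD+AC261066 against HFD livers 7 were lower and none higher, among them *Hao2* (-1.91) and *Cyp2b13* (-3.02). Of 18 genes known for higher expression in males, 11 were called lower and 1 higher between HFD and chow livers, with *C6* at -1.03 and *Cyp4a12b* at -2.47, and 3 were higher in HFD+AC261066 than in HFD livers. The summed log2 level of the female-biased list was 12.6 to 13.6 in HFD+AC261066, 13.6 to 14.6 in HFD and 12.4 to 13.01 in chow livers. Between HFD+AC261066 and chow livers 6 of the 16 genes were called lower and 2 higher, with a median log2 difference of -0.18. Over all tested genes 15.8% were called higher and 16.3% lower for the diet, and 2.13% and 2.25% for the compound on the HFD. In HFD+AC261066 against chow livers 9.79% were called higher and 9.89% lower. The part of the list in the *Slc22a27* and *Slc22a29* results was not tested.

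Markers of liver cell types are given beside these results, and their counts stand against the shares of all genes called, which were 15.8% higher and 16.3% lower for the diet, 2.13% and 2.25% for the compound on the HFD, and 9.79% and 9.89% in HFD+AC261066 against chow. Of 8 stellate cell markers 3 were higher in HFD than in chow livers, and with the compound 3 were lower than in HFD livers, with summed log2 levels of 11.2 to 11.7 in HFD+AC261066, 11.6 to 12.6 in HFD and 11.1 to 11.98 in chow livers. Of 8 hepatocyte markers 4 were called lower and 1 higher between HFD and chow livers, and 3 lower and 1 higher between HFD+AC261066 and chow livers. In HFD+AC261066 against HFD livers limma called 0 of them, with 1 at an unadjusted p under 0.05. Their summed levels were 21.2 to 21.6, 21.3 to 21.5 and 21.3 to 21.7 in the 3 groups in the same order. Kupffer cell markers were higher in 2 of 8 genes in HFD than in chow livers and in 4 of 8 in HFD+AC261066 than in chow livers, with summed levels of 13.4 to 14.2, 13.4 to 13.8 and 13.2 to 13.6. Endothelial markers were lower in 1 of 7 in HFD than in chow and higher in 2 of 7 in HFD+AC261066 than in HFD livers, with summed levels of 13.01 to 13.2, 12.9 to 13.1 and 12.95 to 13.1. Of 5 cholangiocyte markers limma called 0 in every comparison, with 2 at an unadjusted p under 0.05 in HFD+AC261066 against HFD livers and 0 in the others, and the summed levels were 9.52 to 9.78, 9.64 to 10.1 and 9.36 to 10.2. The ranges of the summed levels overlapped between the groups for each of these cell types. Levels were summed before the logarithm, so the most abundant markers weigh most. In the hepatocyte sum that is *Alb*, with a mean log2 value of 21.1 against 17.6 for *Apoa1*. The part of these cell types in the results for the Slc22 genes was not tested.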

How the data were processed

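Liver RNA of 18 mice was sequenced as TruSeq libraries of paired 51-base reads, whereas the sample labels name a DNA kit. The authors aligned reads to mm9 (TopHat 2.0.11), obtained counts per gene (HTSeq 0.6.1), processed these with DESeq2 1.6.3 and then took out batch effects. The deposited values are the authors' log2 values per gene, the transform is not given in the sources used here, and low values lie near their gene's mean. The methods give 1 approximate depth for all samples, but the deposited values are not counts and the depth of each library cannot be read from them, so precision is the spread between mice. Counting strand is not given in the sources used here.

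Of 20512 genes, 3620 were 0 throughout and 13268 reached the minimum mean of 2 on the log2 scale. The test was limma 3.58.1 (R 4.3.3) with a variance trend, all 18 libraries and no batch term, and a gene was called where p, adjusted by Benjamini-Hochberg, was under 0.1. The test was checked on simulated data. Levels per kb subtract the log2 exon length. Sequences, positions and 51-base stretches come from NCBIM37 (mm9) with GENCODE vM1, aligned with Biopython 1.88. The upstream windows end directly before the GENCODE gene starts, and for *Slc22a30* that start was taken in place of the RefSeq one after the sequences were seen. Motif frequencies come from RefSeq promoters (GRCm38.p6). Permutation tests used scipy 1.17.1. The named genes were the 8 members, other Slc22 genes called or near a member, the 3 most similar genes of each member, and, from each list, no more than 4 genes of smallest p. A result that the rule would name is not reported here. The members and lists were chosen with earlier results of these data known. The alternatives were a batch term, each library set, the replicate block, 2 groups only, a minimum of 1 or none, quantiles made equal, no trend, calls at 0.05, and leaving out single libraries.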

Additional observations from a re-analysis of the deposited data

Results flagged for a closer look

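In 24 groups of 6 livers, 1 per gene and group, a library far from the other 5 was looked for, which chance gives in about 1 of 20 groups. For *Slc22a5*, HFD+AC261066 replicate 3 had a log2 value of 9.91, with the nearest of the other livers at 10.6, and the same library stood apart on the first principal component. For the same gene, HFD replicate 2 had a log2 value of 10.9, with the nearest at 10.6.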

How the results depend on the processing

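In libraries 1 to 3 alone, 3 of the 8 genes were called in HFD against chow, 0 in HFD+AC261066 against HFD and 0 in HFD+AC261066 against chow (limma, with 4, 3 and 3 at an unadjusted p under 0.05), where 5, 3 and 2 were called with all libraries. With each library left out in turn, 4 to 5, 2 to 3 and 2 to 4 genes were called (4 without HFD+AC261066 replicate 3 or 5). *Slc22a23* in HFD against chow was -0.0755 in libraries 4 to 6 alone and ranged from -0.0397 to 0.0447 with a library left out. In HFD+AC261066 against HFD, *Slc22a5* was -0.0577 in libraries 1 to 3 alone, *Slc22a28* was -0.0544 in libraries 4 to 6 alone and -0.0935 to 0.147 with a library left out, and *Slc22a7* was -0.00665 to 0.315. *Slc22a5* in HFD+AC261066 against chow was -0.0224 in libraries 1 to 3 alone. None of these differences was called, and the cause of the changes was not tested. The calls of *Slc22a27*, *Slc22a29* and *Slc22a3* in HFD against chow held under all 27 other fits, at a threshold of 0.1. The replicate block gave 6, 2 and 2 called genes, adding *Slc22a28* in HFD against chow (adjusted p = 0.087) and losing *Slc22a3* in HFD+AC261066 against HFD (adjusted p = 0.157). The labels do not say that equal numbers mark related mice, so the block was not used. The deviations of same-numbered livers had a median r of -0.11, against -0.14 for other numbers of the same set and 0.12 across the sets. The equal set means push r within a set downward. That 0 of 18 livers correlated best with its own number therefore cannot decide whether the numbers mark pairs. Over all genes, 581 were called in HFD+AC261066 against HFD, but 372 with a batch term, 292 with the block, 270 at a threshold of 0.05, 23 in libraries 1 to 3 alone and 275 (without HFD+AC261066 replicate 4) to 938 (without HFD+AC261066 replicate 6) with a library left out. The diet comparison gave 922 genes in libraries 1 to 3 alone, against 4257 with all libraries, and HFD+AC261066 against chow gave 123, against 2611. HFD+AC261066 against chow gave 1590 genes at a threshold of 0.05. The values are not counts, so no counting error is given for low genes such as *Slc22a29*.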
